A study of Mus with 2 samples.

Results

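Collagens are the chief structural proteins of the extracellular matrix. Each is a triple helix of alpha chains, and every chain is the product of its own gene. Fibrillar collagens (types I, II, III, V, XI, XXIV and XXVII) form the fibrils of the interstitial matrix, type IV chains form the sheet-like network of basement membranes, types XV and XVIII (the multiplexins) sit at the basement membrane zone, and type VI forms beaded filaments around cells. In adipose tissue, fibroblasts and adipocyte progenitors are the known main source of fibrillar collagen, while vessels and adipocytes are each surrounded by a basement membrane.

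The 44 collagen genes of the mouse were taken by their symbols, Col followed by the type, the letter a and the chain number, from 32285 genes measured in nuclei of interscapular brown adipose tissue (iBAT). All 44 had at least 1 UMI (unique molecular identifier, a tag that marks 1 captured RNA molecule) in the libraries, 37 had at least 20 UMIs over both libraries, and 7 had fewer. Those 7 were Col2a1, Col11a1, Col9a1, Col9a2, Col6a4, Col6a5 and Col10a1, with 5 to 17 UMIs each. In at least 1 of the 5 main classes of nuclei, 31 collagens reached 20 UMIs, and in all 5 classes 14 did. Col4a6, Col8a2, Col17a1, Col22a1, Col24a1 and Col26a1, with 21 to 35 UMIs each over both libraries, reached 20 in none of them. By structural group the 44 genes comprise 11 fibrillar collagens, 6 of the basement membrane network, 2 multiplexins, 6 of the beaded filaments, 9 associated with fibrils, 3 of short-chain networks, 4 that span the membrane and 3 others, among them the anchoring fibril collagen.

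Nuclei came from frozen iBAT of C57BL/6 mice on normal chow at 8 weeks of age. The control library was prepared from Wtap flox/flox mice and the other from Wtap flox/flox mice that also carry UCP1-iCre (Wtap-BKO), each from the pooled tissue of 4 mice. Both groups carry the floxed allele, and Ucp1 drives Cre in brown adipocytes, so the other cell types of the tissue are not the target of the deletion. Wtap encodes a subunit of the complex that writes N6-methyladenosine on RNA. Because each genotype is 1 library, the genotype cannot be told apart from anything else that differed between the libraries, no test was possible, and the intervals given here (95%) cover counting error only.

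There were 9494 nuclei with 10770604 UMIs in the control (Wtap flox/flox) library, and 8772 nuclei with 13945673 UMIs in the library labelled Wtap-BKO. Wtap itself had 384 and 405 UMIs in adipocyte-like nuclei, 50.4 and 48.5 UMIs per 1000000 UMIs (CPM), a log2 ratio of -0.06 (-0.26 to 0.15). The level of Wtap therefore did not set the libraries apart, although 3′ tags do not read the deleted exon. Mitochondrial UMIs exceeded 5% in 33.0% of nuclei of the control library and in 74.8% of nuclei of the library labelled Wtap-BKO, and the libraries shared 20 cell barcodes. Collagens supplied 15760 UMIs (0.146% of the library) and 41555 UMIs (0.298%), respectively.

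Classes of nuclei were set without any collagen gene, by clusters and by markers of other kinds. They comprised 6765 and 4948 adipocyte-like, 274 and 485 fibroblast-like, 1135 and 789 endothelial-like, 479 and 249 pericyte-like and 420 and 1927 immune-like nuclei (mainly macrophage-like and T cell-like) in the control library and in the library labelled Wtap-BKO. A cluster of 421 and 374 nuclei led by mitochondrial transcripts stayed unnamed. The fibroblast-like class carried all 10 fibroblast markers, the sum of which was 4813 and 5852 CPM there. It was 1603 and 1437 CPM in pericyte-like and 104 and 139 CPM in adipocyte-like nuclei. Adipocyte markers summed to 3930 and 3819 CPM in the fibroblast-like class.

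Collagen transcripts took a larger share of the RNA of fibroblast-like nuclei than of any other class in both libraries. Summed over the 44 genes they reached 8155 CPM (7840 to 8481) in fibroblast-like nuclei of the control library and 11903 CPM (11691 to 12118) in those of the library labelled Wtap-BKO. Pericyte-like nuclei followed with 2516 and 3636 CPM, adipocyte-like nuclei with 1274 and 2681 CPM, endothelial-like nuclei with 1054 and 2312 CPM, and immune-like nuclei with 724 and 1118 CPM. The order of the 5 classes was the same in both libraries, and the sum was higher in the library labelled Wtap-BKO in each. Adipocyte-like nuclei, the most numerous class, held 61.6% and 53.9% of all collagen UMIs, while fibroblast-like nuclei held 15.9% and 28.8%. Col27a1 alone supplied 3704 of 9702 and 13067 of 22396 collagen UMIs of adipocyte-like nuclei. In endothelial-like nuclei it supplied 196 of 1453 and 418 of 1890. The place of adipocyte-like above endothelial-like nuclei in the order of sums rested on this gene in both libraries.

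The number of different collagens seen in 1 nucleus was compared after each nucleus had been thinned to 1000 UMIs, which left out shallower nuclei. A fibroblast-like nucleus then held a median of 5 collagen genes in the control library (118 nuclei) and 7 in the library labelled Wtap-BKO (386 nuclei). The medians were 2 and 3 in pericyte-like, 1 and 2 in endothelial-like, 1 and 1 in adipocyte-like and 1 and 1 in immune-like nuclei. At least 3 different collagens were present in 86.4% and 95.1% of fibroblast-like nuclei, but in 7.56% and 18.3% of adipocyte-like nuclei.

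**Figure D1:**
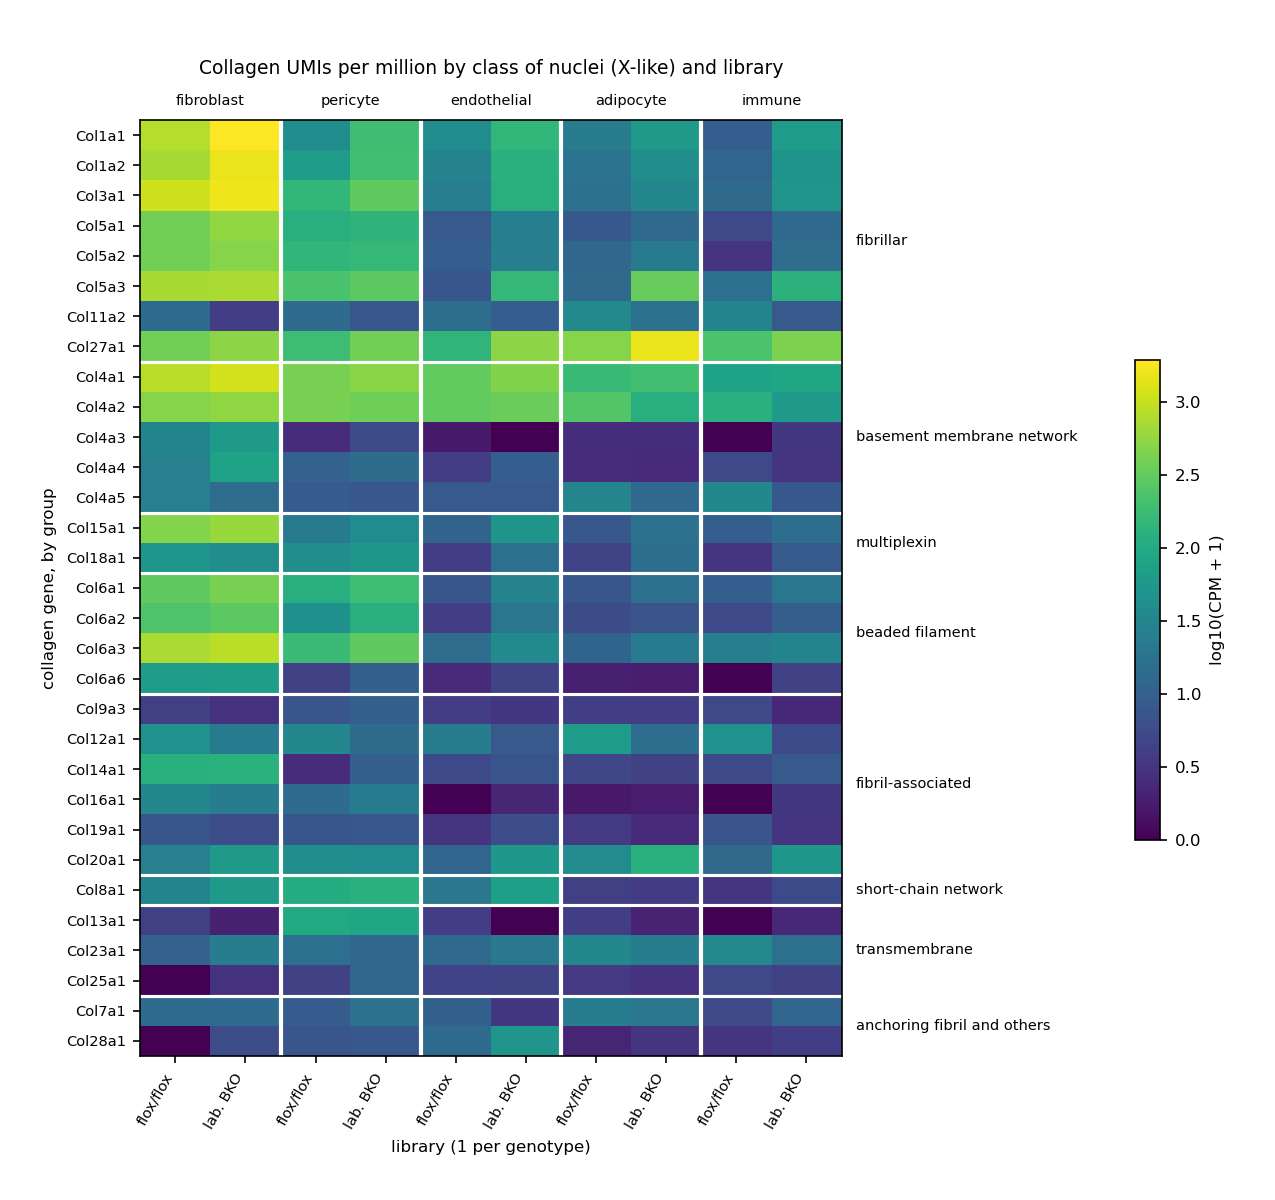
Levels of the 31 collagens with at least 20 UMIs in a class, as log10(CPM + 1) (colour), with collagens by structural group in rows and the 5 classes of nuclei in columns, the Wtap flox/flox library left and the library labelled Wtap-BKO right within each class (1 library each). The fibroblast columns are the brightest for most fibrillar, type IV, type VI and type XV chains, and Col27a1 is brightest in adipocyte-like nuclei.

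Most collagens had their highest level in fibroblast-like nuclei, yet several had another class at the top. Of 32 collagens with enough UMIs in the control library, 18 were highest in fibroblast-like nuclei, and for 14 of them the interval of the ratio to the next class lay above 0. In the library labelled Wtap-BKO these counts were 20 of 33 and 16. Over the 31 collagens ranked in both libraries, 25 had the same highest class. Type I and III chains, the measured type VI chains, Col15a1 and Col14a1 were clear of the next class in both libraries. Col1a1, the main chain of type I collagen, was 4.42 (3.82 to 5.09) higher on the log2 scale in fibroblast-like than in pericyte-like nuclei of the control library, and 3.36 (3.05 to 3.70) higher in the other. For Col3a1 (type III) the same ratio was 2.89 (2.55 to 3.24) and 2.41 (2.15 to 2.67). For Col15a1 the distance to the next class was 4.48 (3.66 to 5.42) and 3.60 (3.14 to 4.10), and the next class was pericyte-like in the first library and endothelial-like in the second.

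Other collagens led elsewhere. Col13a1, a transmembrane collagen, was highest in pericyte-like nuclei at 98 and 85.9 CPM, clear of the next class by 4.92 (2.38 to 10.24) and 5.95 (4.48 to 7.90) on the log2 scale. Col8a1, a short-chain collagen of vessel walls, was also highest in pericyte-like nuclei, at 106 and 122 CPM, clear of the next class by 1.86 (0.85 to 3.05) and 0.81 (0.24 to 1.37). Col28a1 was highest in endothelial-like nuclei at 13.1 and 51.4 CPM, and the distance to pericyte-like nuclei was clear of 0 in the library labelled Wtap-BKO (2.92, 1.28 to 5.26) and not in the control library (1.0, -0.60 to 3.02). Col27a1, a fibrillar collagen with a shortened helix, was highest in adipocyte-like nuclei. It stood 0.34 (0.08 to 0.62) above fibroblast-like nuclei in the control library and 1.58 (1.46 to 1.71) above them in the library labelled Wtap-BKO. For Col4a2 the fibroblast-like and pericyte-like levels of the control library, 490 and 404 CPM, were not clear of each other (0.28, -0.02 to 0.58). Col4a1 was clear, by 1.05 (0.79 to 1.30) and 1.21 (1.0 to 1.42). For Col18a1 the first and second class changed places between the libraries, and in neither were they clear of each other.

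In fibroblast-like nuclei the type I chains showed the widest difference among the 8 collagens with the most UMIs. Col1a1 (chromosome 11, 94936224 to 94953042, in the GRCm38.p6 annotation) had 259 UMIs in the control library and 1940 in the library labelled Wtap-BKO, which is 841 and 1931 CPM and a log2 ratio of 1.20 (1.01 to 1.39). Its partner chain Col1a2 (chromosome 6, 4505618 to 4541543) had 223 and 1570 UMIs, 724 and 1563 CPM, a ratio of 1.11 (0.91 to 1.32). Type III collagen, Col3a1 (chromosome 1, 45311538 to 45349706), had 340 and 1615 UMIs, 1104 and 1608 CPM, a ratio of 0.54 (0.37 to 0.71). All 3 were higher in the library labelled Wtap-BKO, and the difference of the type I chains was the wider.

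The minor fibrillar chains of type V, which seed the fibrils of type I, lay closer together. Col5a1 had 383 and 568 CPM (log2 ratio 0.57, 0.28 to 0.87) and Col5a2 had 383 and 491 CPM (0.36, 0.06 to 0.66). Col5a3 had 219 and 750 UMIs, 711 and 747 CPM, a ratio of 0.07 (-0.15 to 0.29), so that no difference was detectable at this depth. Col27a1 stood at 383 and 523 CPM (0.45, 0.16 to 0.75). All 7 fibrillar collagens measured in fibroblast-like nuclei had a ratio above 0, with a median of 0.54 against 0.08 over all genes measured there.

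In fibroblast-like nuclei 4 of 5 measured collagens of the basement membrane network had a ratio above 0, with the lowest at -0.90. So had all 4 measured beaded filament collagens and 1 of 2 multiplexins. Col4a1 had 261 and 1154 UMIs, 848 and 1149 CPM, a log2 ratio of 0.44 (0.24 to 0.64), and Col4a2 had 151 and 549 UMIs, 490 and 546 CPM, a ratio of 0.16 (-0.11 to 0.43). The multiplexin Col15a1 had 146 and 598 UMIs, 474 and 595 CPM, a ratio of 0.33 (0.06 to 0.60). Col18a1, from which endostatin is cut, had 16 and 41 UMIs, 52.0 and 40.8 CPM, and a ratio whose interval held 0 (-0.35, -1.21 to 0.58). Of type VI, Col6a3 had 230 and 884 UMIs, 747 and 880 CPM, a ratio of 0.24 (0.03 to 0.45), while Col6a1 stood at 305 and 410 CPM (0.43, 0.10 to 0.76) and Col6a2 at 237 and 285 CPM (0.26, -0.11 to 0.66). Less abundant chains reached higher ratios with wide intervals, such as Col4a4 at 26.0 and 76.6 CPM (1.56, 0.51 to 2.82) and Col8a1 at 29.2 and 59.7 CPM (1.03, 0.01 to 2.23).

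Of the 24 collagens measured in fibroblast-like nuclei (at least 20 UMIs over both libraries), 6 were at least 2-fold higher in the library labelled Wtap-BKO and 1 was at least 2-fold lower, against 11.2% and 4.52% of all 8381 genes measured there. The 6 were Col1a1, Col1a2, Col4a4, Col8a1, Col20a1 and Col23a1, and the 1 was Col12a1 at 45.5 and 20.9 CPM (-1.12, -2.17 to -0.03). The interval lay above 0 for 13 of the 24 and below 0 for 1. The median ratio of the 24 was 0.39.

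Nuclei with over 5% mitochondrial UMIs made up 17.9% of the fibroblast-like class in the control library and 45.6% in the library labelled Wtap-BKO, and collagen levels differed with that share. Among nuclei with at most 5% (225 and 264 nuclei), Col1a1 was 1003 and 1541 CPM, a log2 ratio of 0.62 (0.41 to 0.83). Among nuclei above 5% (49 and 221 nuclei), Col1a1 had 13 and 1077 UMIs, 207 and 2422 CPM, a ratio of 3.55 (2.77 to 4.46). Both strata were higher in the library labelled Wtap-BKO, and within that library the nuclei above 5% held more Col1a1, while within the control library they held less. Col3a1 had ratios of 0.40 (0.21 to 0.60) and 1.26 (0.81 to 1.75), and Col1a2 of 0.89 (0.66 to 1.12) and 1.68 (1.18 to 2.22). Col27a1 was not higher in the low stratum (-0.09, -0.46 to 0.28). With nuclei above 5% removed, 1 collagen in place of 6 was at least 2-fold higher. Of all genes measured in those nuclei, 11.2% were higher and 406 of 6656 lower. The number of collagens measured there is not given, so the 1 is not set against that share. The part of the mitochondrial share in these ratios was not tested.

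**Figure D2:**
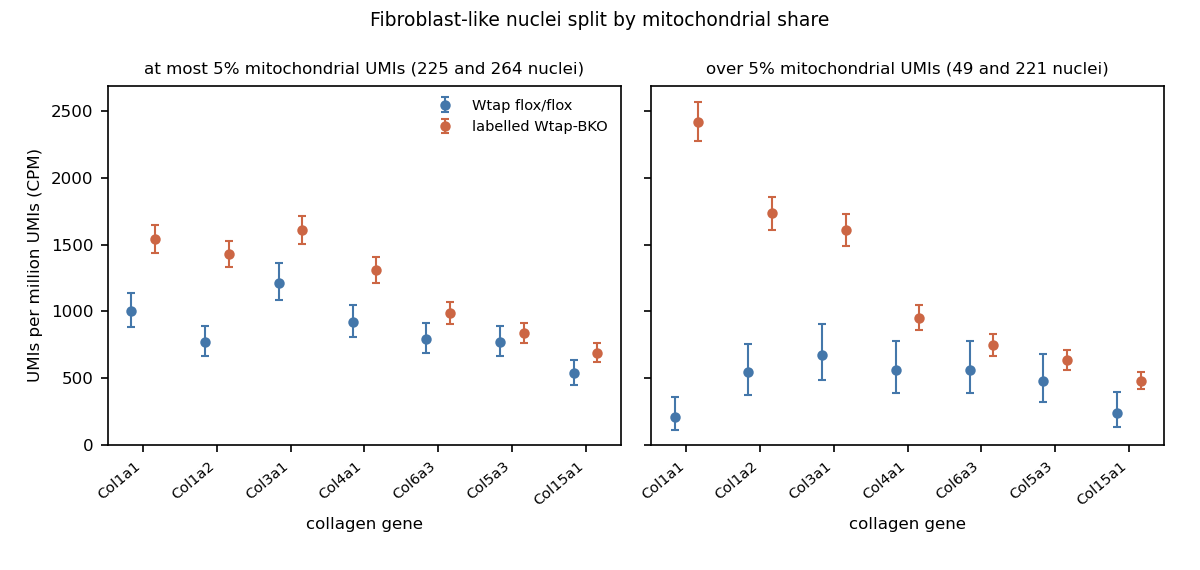
CPM (y axis) of 7 collagens in fibroblast-like nuclei with at most 5% mitochondrial UMIs (left) and over 5% (right), blue for the Wtap flox/flox library and orange for the library labelled Wtap-BKO; bars are exact Poisson 95% intervals. Col1a1 sits at 1003 and 1541 CPM on the left and at 207 and 2422 CPM on the right.

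The sum of the fibroblast markers differed less than the type I chains, with a log2 ratio of 0.28 (0.20 to 0.37) in the same nuclei. Per 100 fibroblast marker UMIs, fibroblast-like nuclei held 17.5 and 33.0 UMIs of Col1a1, 22.9 and 27.5 of Col3a1 and 15.5 and 15.0 of Col6a3. Adipocyte markers were at 3930 and 3819 CPM in these nuclei, close to each other in the libraries.

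In adipocyte-like nuclei the collagens with the most UMIs were Col27a1, Col4a2, Col5a3 and Col4a1. Col5a3 (chromosome 9, 20770050 to 20815117) showed the widest ratio of any collagen in this class. It had 98 UMIs in 6765 nuclei of the control library and 2783 UMIs in 4948 nuclei of the library labelled Wtap-BKO, which is 12.9 and 333 CPM and a log2 ratio of 4.69 (4.40 to 5.0). By this ratio it was number 20 from the top among 14105 genes measured in adipocyte-like nuclei. In the library labelled Wtap-BKO its level was still below that of fibroblast-like nuclei, by 1.16 (1.05 to 1.28) on the log2 scale, but above that of pericyte-like nuclei, which had been the second class in the control library.

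Col5a3 was higher in each adipocyte-like cluster. In the cluster with the most nuclei (3210 and 1713) it had 13 and 346 CPM, a log2 ratio of 4.73 (4.25 to 5.25), and in the cluster led by Lncbate10, Foxp2 and Ppargc1a 8.03 and 319 CPM (5.31, 4.70 to 6.00). The cluster led by mitochondrial transcripts held 14.9 and 282 CPM (4.24, 3.66 to 4.89). Adipocytes led by Slc7a10, Cyp2e1 and Trhde had the highest level in both libraries, 52.9 and 443 CPM, and the narrowest ratio (3.07, 2.35 to 3.88). In the cluster led by interferon-inducible GTPases, Col5a3 had 0 and 223 UMIs, at least 4.45 higher on the log2 scale against a floor of 3 UMIs. By mitochondrial share the ratio was 4.92 (4.57 to 5.29) at or below 5% and 4.41 (3.85 to 5.02) above.

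After thinning to 1000 UMIs, Col5a3 was present in 1.40% and 23.9% of adipocyte-like nuclei (3295 and 3841 nuclei), and without thinning in 1.39% and 32.2%. Immune-like nuclei, which are not known to express the gene, gave 0 of 185 thinned nuclei in the control library and 9.77% in the library labelled Wtap-BKO. At a floor of 3 nuclei, 0 of 185 allows up to 1.62%. Median depth was 989 and 1472 UMIs in adipocyte-like nuclei and 893 and 1145 UMIs in immune-like nuclei. The share in adipocyte-like nuclei of the library labelled Wtap-BKO was above that in immune-like nuclei (22.5 to 25.3% against 8.12 to 11.6%). In the control library the 1.40% (1.02 to 1.86%) lay below the limit that 0 of 185 immune-like nuclei allows, so no expression is read from it. Fibroblast-like nuclei gave 44.9% and 51.0%, and pericyte-like nuclei 17.9% and 21.7%.

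**Figure D3:**
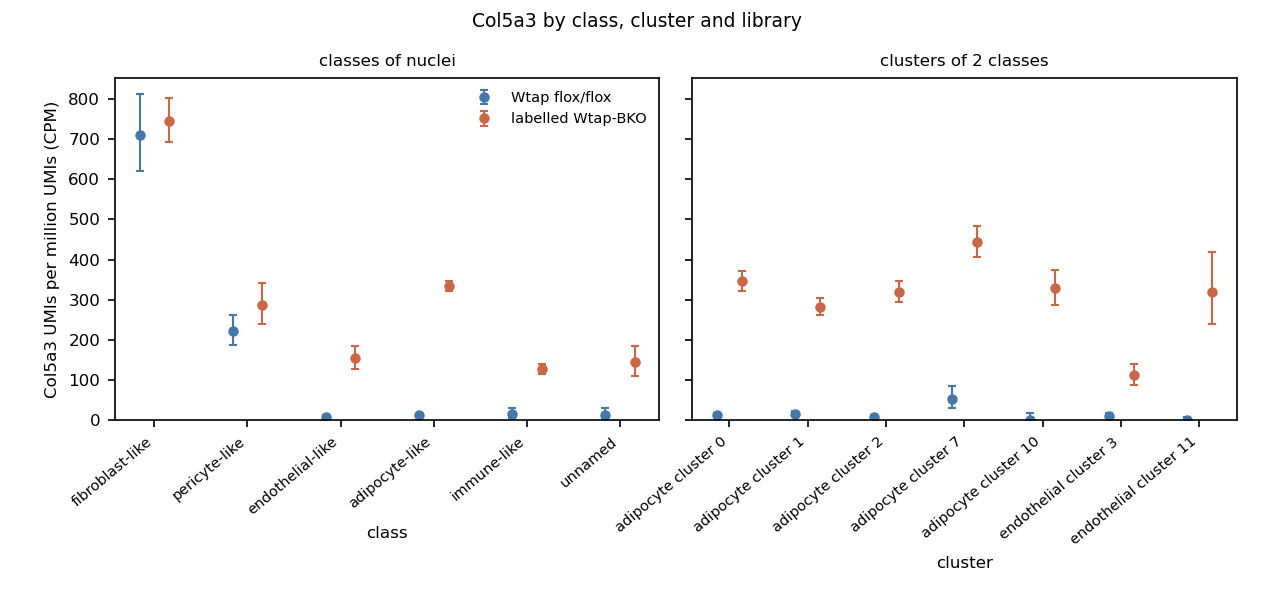
Col5a3 CPM (y axis) in the classes of nuclei and in single clusters, blue for the Wtap flox/flox library and orange for the library labelled Wtap-BKO (1 library each), with exact Poisson 95% intervals; adipocyte clusters 0, 1, 2, 7 and 10 are those with the most nuclei, led by mitochondrial transcripts, led by Lncbate10, led by Slc7a10 and led by interferon-inducible GTPases. Fibroblast-like nuclei sit at 711 and 747 CPM, whereas adipocyte-like nuclei sit at 12.9 and 333 CPM.

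The higher Col5a3 level of the library labelled Wtap-BKO was also seen in classes that carry adipocyte marker RNA at a lower level. Endothelial-like nuclei had 9 and 126 UMIs, 6.53 and 154 CPM (log2 ratio 4.56, 3.59 to 5.72), and immune-like nuclei had 7 and 365 UMIs, 14.9 and 127 CPM (3.09, 2.03 to 4.41). Per 100 adipocyte marker UMIs, Col5a3 was 0.12 and 2.26 in adipocyte-like, 0.11 and 2.59 in endothelial-like, 0.25 and 2.66 in immune-like and 0.21 and 1.95 in the unnamed nuclei. Over these 4 classes the values lay between 0.11 and 0.25 in the control library and between 1.95 and 2.66 in the library labelled Wtap-BKO. Pericyte-like nuclei (4.70 and 4.54) and fibroblast-like nuclei (18.1 and 19.6) stood above them in both libraries. Adipocyte markers summed to 11064 and 14756 CPM in adipocyte-like nuclei, 5806 and 5957 in endothelial-like, 5963 and 4758 in immune-like and 4726 and 6321 in pericyte-like nuclei. The part of free adipocyte RNA in the levels of the other classes was not tested.

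Col27a1 (chromosome 4, 63214009 to 63334991) gave more UMIs than any other collagen. Adipocyte-like nuclei had 3704 UMIs in the control library and 13067 in the library labelled Wtap-BKO, 487 and 1564 CPM, a log2 ratio of 1.68 (1.63 to 1.74). It was present in 33.8% and 64.7% of thinned adipocyte-like nuclei (34.9% and 72.9% without thinning), against 23.8% and 24.1% of thinned immune-like nuclei. The ratio was 1.89 (1.80 to 1.98), 1.98 (1.86 to 2.10), 1.84 (1.75 to 1.93) and 1.39 (1.11 to 1.68) in 4 of the 5 adipocyte-like clusters. In the cluster led by Slc7a10, Cyp2e1 and Trhde the levels were 347 and 514 CPM, a ratio of 0.57 (0.27 to 0.88), an interval that lies below those of the other 4 clusters. The cluster with the highest Col5a3 level had the lowest Col27a1 level in each library.

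The chains of type IV collagen differed from each other in adipocyte-like nuclei. Their genes lie head to head on chromosome 8, with annotated spans of 11198423 to 11312889 (Col4a1) and 11312805 to 11449287 (Col4a2) that overlap by 85 bases, and the chains assemble together into the network found in nearly all basement membranes. Col4a1 had 1241 and 1607 UMIs, 163 and 192 CPM, a log2 ratio of 0.24 (0.13 to 0.35). Col4a2 had 1907 and 990 UMIs, 250 and 118 CPM, a ratio of -1.08 (-1.19 to -0.97). Col4a2 was lower in the library labelled Wtap-BKO in all 5 adipocyte-like clusters, with ratios from -1.44 to -0.65, whereas Col4a1 ranged from -0.19 to 0.64. The same held at a mitochondrial share of at most 5% (Col4a2 -0.84, -1.04 to -0.66, and Col4a1 0.27, 0.09 to 0.44). Fewer nuclei held a UMI of Col4a2 as well, 20.7% and 10.9% after thinning, while the share for Col4a1 was 14.7% and 14.8%.

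This separation of Col4a1 and Col4a2 was narrower in vessel cells and fibroblasts. In endothelial-like nuclei Col4a2 stood at 308 and 338 CPM (0.13, -0.09 to 0.35), in pericyte-like nuclei at 404 and 362 CPM (-0.16, -0.45 to 0.13) and in fibroblast-like nuclei at 490 and 546 CPM (0.16, -0.11 to 0.43). In each of these classes the interval of Col4a2 held 0 and lay above that of adipocyte-like nuclei. Immune-like nuclei had the same ratio as adipocyte-like nuclei, with 57 and 166 UMIs, 121 and 57.6 CPM (-1.08, -1.52 to -0.62).

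Other fibrillar and filament collagens were scarce in adipocyte-like nuclei. Col1a1 had 183 and 482 UMIs, 24.0 and 57.7 CPM (log2 ratio 1.26, 1.01 to 1.52), Col1a2 had 16.9 and 41.2 CPM (1.28, 0.98 to 1.58), Col3a1 had 119 and 271 UMIs, 15.6 and 32.4 CPM (1.05, 0.74 to 1.38), and Col6a3 had 79 and 174 UMIs, 10.4 and 20.8 CPM (1.01, 0.61 to 1.41). Col1a1 was present in 1.82% and 4.82% of thinned adipocyte-like nuclei (1.97% and 7.78% without thinning), and in 0.541% and 5.15% of thinned immune-like nuclei. The share in adipocyte-like nuclei of the library labelled Wtap-BKO was thus no higher than in immune-like nuclei, and no expression is read from it. Fibroblast markers were also higher in adipocyte-like nuclei of that library (0.43 on the log2 scale, 9 of 10 markers). Per 100 fibroblast marker UMIs, Col1a1 was 23.2 and 41.4 in adipocyte-like nuclei, against 17.5 and 33.0 in fibroblast-like nuclei. The part of fibroblast RNA in these levels was not tested.

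The multiplexins were low but higher in the library labelled Wtap-BKO, Col15a1 with 51 and 137 UMIs, 6.70 and 16.4 CPM (1.29, 0.82 to 1.78), and Col18a1 with 28 and 122 UMIs, 3.68 and 14.6 CPM (1.99, 1.39 to 2.64). Col20a1, a fibril-associated collagen, had 287 and 1022 UMIs, 37.7 and 122 CPM (1.70, 1.51 to 1.89).

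Several collagens were lower in adipocyte-like nuclei of the library labelled Wtap-BKO. Col12a1, which binds to type I fibrils, had 497 and 121 UMIs, 65.3 and 14.5 CPM, a log2 ratio of -2.17 (-2.47 to -1.88). Col4a5, a chain of the specialised basement membranes, had 233 and 101 UMIs, 30.6 and 12.1 CPM (-1.34, -1.69 to -1.0), and Col11a2 had 264 and 137 UMIs, 34.7 and 16.4 CPM (-1.08, -1.39 to -0.78). Col23a1, a transmembrane collagen, stood at 32.3 and 23.1 CPM (-0.48, -0.76 to -0.21). In the control library immune-like nuclei held Col4a5 at 32.0, Col23a1 at 34.1 and Col11a2 at 29.8 CPM. For none of these genes were immune-like and adipocyte-like nuclei of that library clear of each other. The part of free RNA was not tested. Col7a1, the anchoring fibril collagen, differed by less than counting error, 23.2 and 18.8 CPM (-0.31, -0.63 to 0.01).

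Of 29 collagens measured in adipocyte-like nuclei, 10 were at least 2-fold higher in the library labelled Wtap-BKO and 5 at least 2-fold lower, against 14.7% and 4.2% of all 14105 genes. The 10 comprised 5 fibrillar collagens (Col1a1, Col1a2, Col3a1, Col5a3 and Col27a1), both multiplexins, Col6a1, Col6a3 and Col20a1, and the 5 were Col4a2, Col4a5, Col11a2, Col12a1 and Col13a1. Of the 10, Col1a1, Col1a2, Col3a1 and Col6a3 are the scarce collagens above, for which the part of fibroblast RNA was not tested. It was not tested either for Col6a1 and Col15a1, which were also highest in fibroblast-like nuclei in both libraries. The median ratio was 1.16 over 8 fibrillar collagens and -0.03 over 5 type IV chains. Over the 29 it was 0.24, and over all genes 0.07. With Col1a1, Col3a1 and Col5a3 left out it was -0.02 over 26 collagens, of which 12 had a ratio above 0. Nuclei above 5% mitochondrial UMIs made up 23.3% and 78.6% of the class. Without them 24 collagens were measured, with a median of 1.06. Of these, 13 were at least 2-fold higher and 2 lower, against 13.8% of genes higher and 528 of 12129 genes lower.

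**Figure D4:**
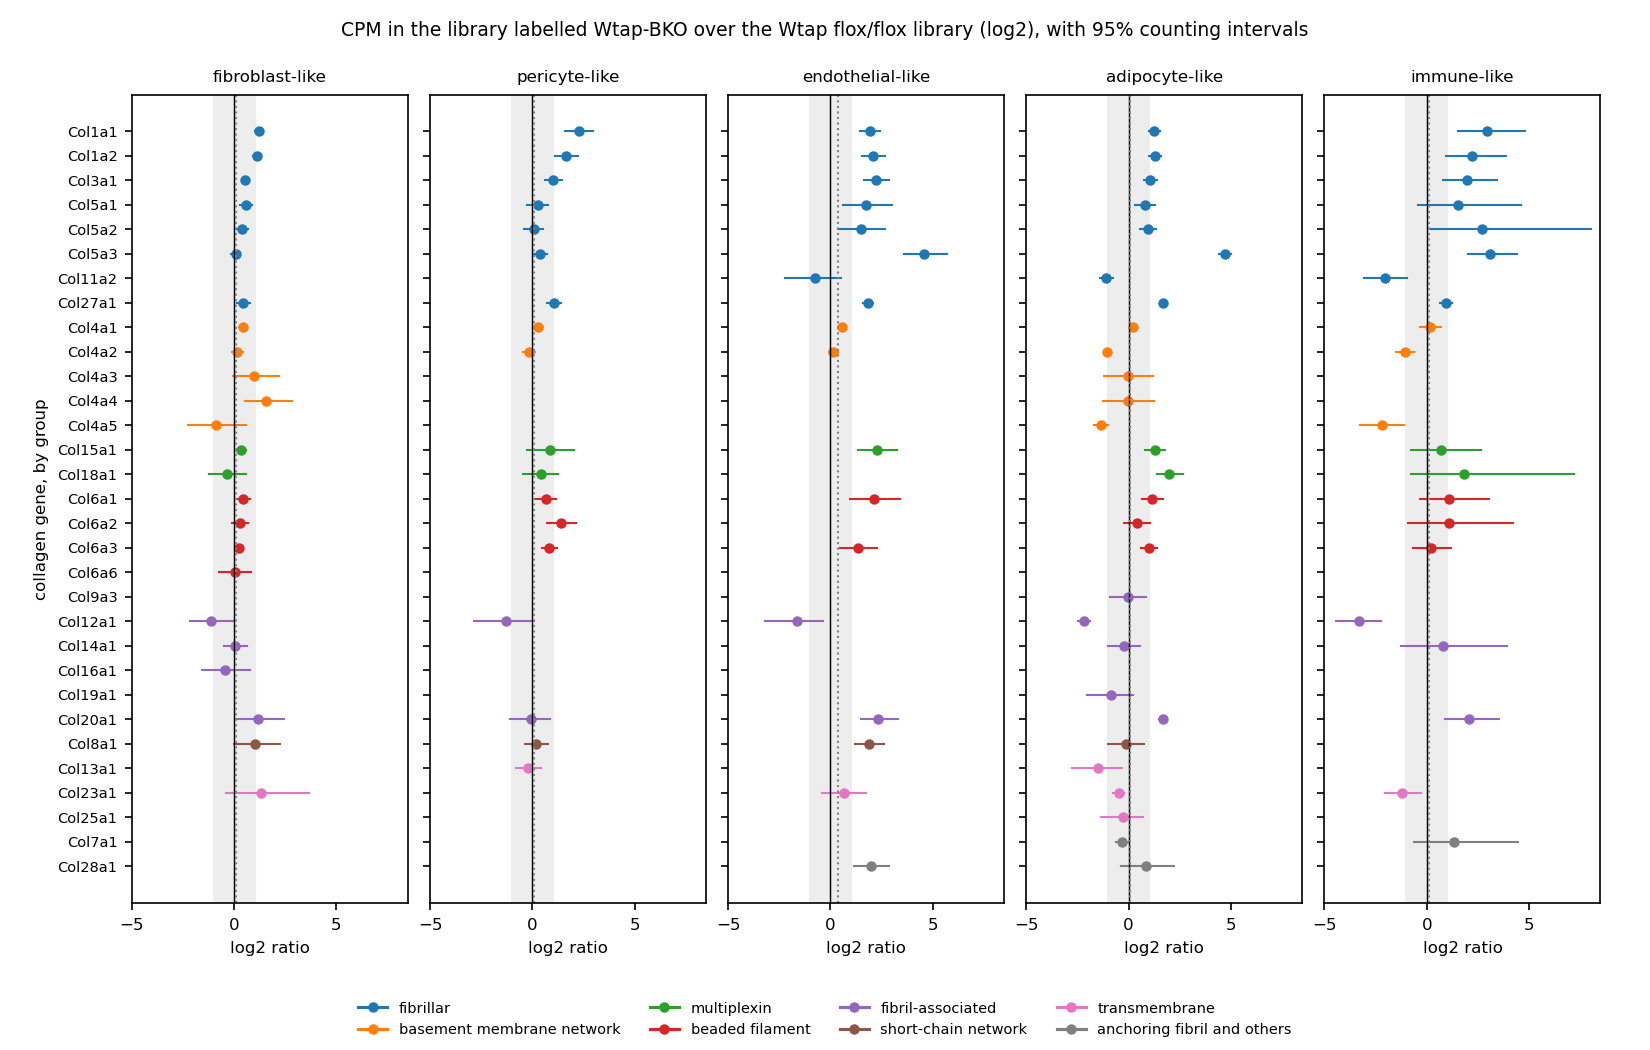
Log2 ratio of CPM (x axis), the library labelled Wtap-BKO over the Wtap flox/flox library, of each collagen with at least 20 UMIs in a class (y axis), 1 panel for each of the 5 classes; bars are exact 95% intervals for counting error and the solid line at 0 marks equal levels, the grey band differences under 2-fold, the dotted line the median of all genes measured in the class, and colours the structural groups. Col5a3 lies at 4.69 in adipocyte-like and at 0.07 in fibroblast-like nuclei, and Col12a1 lies below 0 in all 5 panels.

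In endothelial-like nuclei Col4a1 and Col4a2 had the most UMIs of the collagens in the control library, and Col27a1 had the most in the library labelled Wtap-BKO. Col4a1 had 429 and 376 UMIs, 311 and 460 CPM, a log2 ratio of 0.56 (0.36 to 0.77), and Col4a2 had 425 and 276 UMIs, 308 and 338 CPM (0.13, -0.09 to 0.35). Type I and III chains were low in the control library and higher in the other. Col1a1 had 53 and 120 UMIs, 38.4 and 147 CPM (1.93, 1.46 to 2.43), Col1a2 had 28.3 and 120 CPM (2.08, 1.53 to 2.66) and Col3a1 had 34 and 95 UMIs, 24.7 and 116 CPM (2.24, 1.66 to 2.85). Col8a1 had 26 and 57 UMIs, 18.9 and 69.7 CPM (1.89, 1.19 to 2.62), Col15a1 had 14 and 40 UMIs, 10.2 and 48.9 CPM (2.27, 1.36 to 3.26), Col6a3 had 19 and 29 UMIs, 13.8 and 35.5 CPM (1.36, 0.48 to 2.28), and Col27a1 had 196 and 418 UMIs, 142 and 511 CPM (1.85, 1.60 to 2.10). Apart from Col4a2, each of these was higher in the library labelled Wtap-BKO, with an interval above 0.

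Of 18 collagens measured in endothelial-like nuclei, 13 were at least 2-fold higher and 1, Col12a1, at least 2-fold lower, against 14.8% and 2.69% of 9382 genes. The median of the 18 was 1.87 and that of all genes 0.35. Fibroblast markers were also higher there, at 142 and 285 CPM (10 of 10 markers higher, a ratio of 1.0 for their sum), and the endothelial markers stood at 3630 and 6448 CPM (11 of 11 higher). Per 100 fibroblast marker UMIs, Col1a1 was 27.0 and 51.5 and Col3a1 17.3 and 40.8. Without nuclei above 5% mitochondrial UMIs (68.6% and 68.1% of the class), 10 collagens were measured, 7 at least 2-fold higher and none lower. Of all genes in that setting, 10.3% were higher and 530 of 5568 lower. The part of fibroblast RNA in the endothelial values was not tested.

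The endothelial-like class held a cluster of 877 and 709 nuclei and a smaller cluster of 258 and 80 nuclei with a far higher adipocyte marker sum, 8616 and 12334 CPM against 4553 and 4298 CPM. Col27a1 stood at 308 and 1488 CPM in the smaller cluster and at 68.2 and 257 CPM in the larger, and Col5a3 had 0 and 54 UMIs in the smaller one. In the larger cluster alone, Col5a3 had 9 and 72 UMIs, 9.44 and 111 CPM (3.56, 2.55 to 4.74), and Col4a1 had 338 and 519 CPM (0.62, 0.40 to 0.85). In that cluster 14 collagens of 16 were at least 2-fold higher. The share over all genes is given for the whole class only (14.8%). Marker sums were also higher in that cluster, at 4259 and 7529 CPM for endothelial and 168 and 305 CPM for fibroblast markers.

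Pericyte-like nuclei combined type IV chains with interstitial collagens. Col4a1 had 251 and 220 UMIs, 410 and 497 CPM, a log2 ratio of 0.28 (0.01 to 0.54), and Col4a2 had 247 and 160 UMIs, 404 and 362 CPM (-0.16, -0.45 to 0.13). Col5a3 had 136 and 127 UMIs, 222 and 287 CPM (0.37, 0.01 to 0.73), a ratio well below that of adipocyte-like nuclei. Col6a3 had 106 and 136 UMIs, 173 and 307 CPM (0.83, 0.45 to 1.21), and Col6a1 had 118 and 185 CPM (0.66, 0.18 to 1.13). Col3a1 had 91 and 134 UMIs, 149 and 303 CPM (1.03, 0.63 to 1.43), Col1a1 had 24 and 83 UMIs, 39.2 and 188 CPM (2.26, 1.59 to 2.98), and Col27a1 had 112 and 168 UMIs, 183 and 380 CPM (1.05, 0.70 to 1.41). Col5a2 (145 and 151 CPM, 0.06, -0.42 to 0.53), Col8a1 (0.20, -0.35 to 0.74), Col13a1 (-0.19, -0.82 to 0.42), Col18a1 (25 and 24 UMIs, 40.9 and 54.2 CPM, 0.41, -0.46 to 1.28) and Col15a1 (13 and 17 UMIs, 21.2 and 38.4 CPM, 0.85, -0.27 to 2.02) did not differ beyond counting error.

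Of 18 collagens measured in pericyte-like nuclei, 5 were at least 2-fold higher (Col1a1, Col1a2, Col3a1, Col6a2 and Col27a1) and 1 lower (Col12a1), against 9.01% and 3.59% of 7545 genes. The median was 0.39 and that of all genes 0.10. Without nuclei above 5% mitochondrial UMIs (40.9% and 59.0% of the class), 2 of 14 were at least 2-fold higher and 0 lower. Of all genes in that setting, 6.47% were higher and 348 of 4016 lower. By mitochondrial share the ratio of Col3a1 was 0.16 (-0.60 to 0.90) at or below 5% and 1.48 (0.95 to 2.02) above. Fibroblast markers summed to 1603 and 1437 CPM in these nuclei, while Col1a1 was at 2.45 and 13.1 UMIs per 100 fibroblast marker UMIs.

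**Figure D5:**
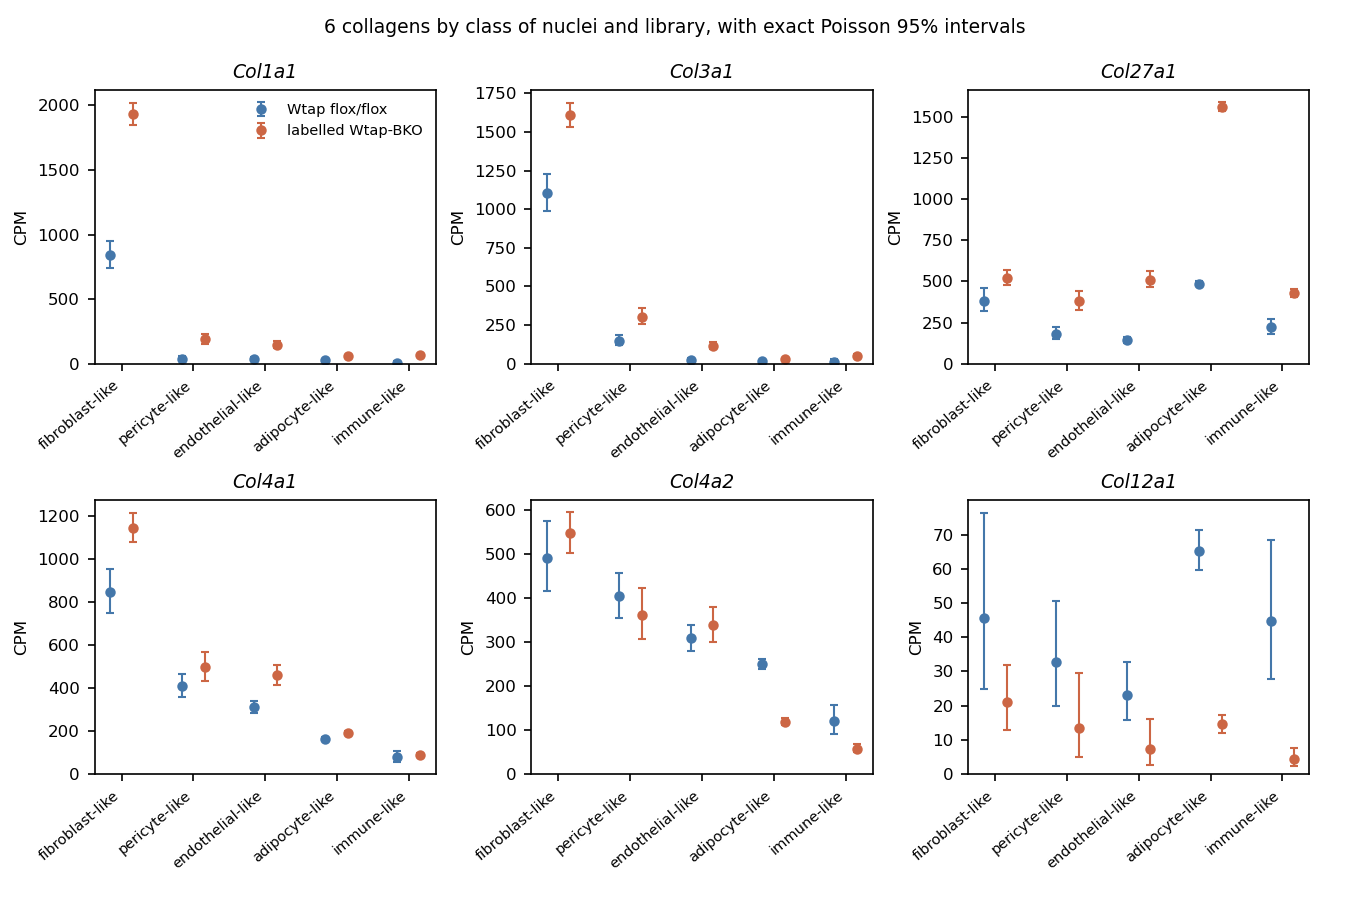
CPM (y axis) of 6 collagens in the 5 classes of nuclei (x axis), blue for the Wtap flox/flox library and orange for the library labelled Wtap-BKO (1 library each), with exact Poisson 95% intervals. Col1a1 in fibroblast-like nuclei sits at 841 and 1931 CPM, and Col4a2 in adipocyte-like nuclei at 250 and 118 CPM.

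Immune-like nuclei had the lowest collagen sum of the 5 classes, and most collagens described here rested on few UMIs in the control library. Col27a1 had 105 and 1240 UMIs, 224 and 430 CPM, a log2 ratio of 0.94 (0.66 to 1.25), and Col4a1 had 37 and 253 UMIs, 78.8 and 87.8 CPM (0.16, -0.35 to 0.69). Col1a1 had 4 and 187 UMIs, 8.52 and 64.9 CPM (2.93, 1.55 to 4.82), Col3a1 had 6 and 145 UMIs, 12.8 and 50.3 CPM (1.98, 0.82 to 3.45), and Col20a1 had 6 and 155 UMIs, 12.8 and 53.8 CPM (2.07, 0.92 to 3.54). Col6a3 (12 and 84 UMIs, 25.6 and 29.2 CPM, 0.19, -0.69 to 1.20), Col15a1 (4 and 40 UMIs, 8.52 and 13.9 CPM, 0.70, -0.76 to 2.65) and Col18a1 (1 and 22 UMIs, 2.13 and 7.64 CPM, 1.84, -0.79 to 7.21) did not differ beyond counting error. Of 21 collagens measured, 11 were at least 2-fold higher and 5 lower, against 13% and 5.67% of 11562 genes. The interval lay above 0 for 7 of the 21 and below 0 for 5, and Col18a1 is among the 11 although its interval held 0. Without nuclei above 5% mitochondrial UMIs (27.6% and 72.3% of the class), 7 of 12 were higher and 2 lower. Of all genes in that setting, 14.9% were higher and 696 of 8409 lower.

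Per 100 adipocyte marker UMIs, Col27a1 in the control library was 3.75 (3.06 to 4.56) in immune-like and 4.40 (4.25 to 4.54) in adipocyte-like nuclei, and in the library labelled Wtap-BKO it was lower in immune-like nuclei, at 9.04 (8.53 to 9.59) against 10.6 (10.4 to 10.8). In the latter library the type IV chains were higher on this scale in immune-like nuclei, with Col4a1 at 1.85 (1.62 to 2.09) against 1.30 (1.24 to 1.37) and Col4a2 at 1.21 (1.03 to 1.41) against 0.80 (0.75 to 0.85). The 5 collagens that were lower in immune-like nuclei were Col4a2, Col4a5, Col11a2, Col12a1 and Col23a1, of which the first 4 were also at least 2-fold lower in adipocyte-like nuclei. By mitochondrial share the ratio of Col27a1 was 0.02 (-0.34 to 0.40) at or below 5% and 1.96 (1.23 to 2.80) above. The part of free RNA in these levels was not tested.

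The collagens were then set beside genes that make, cut, cross-link, degrade or bind collagen. Of 16 genes for chain modification and folding, 15 were measured in fibroblast-like nuclei and 1 was at least 2-fold higher, Serpinh1, which encodes the collagen chaperone HSP47, and 1 lower, Plod3, a lysyl hydroxylase, whose interval held 0 (26.0 and 11.9 CPM, -1.12, -2.53 to 0.37), against 11.2% and 4.52% of all genes. Serpinh1 had 17 and 187 UMIs, 55.2 and 186 CPM, a log2 ratio of 1.75 (1.04 to 2.56). P4ha1, a catalytic subunit of prolyl hydroxylase, stood at 68.2 and 130 CPM (0.93, 0.26 to 1.67), and Mia3, which loads procollagen for export, at 205 and 173 CPM (-0.24, -0.66 to 0.20). Of 12 genes for propeptide cleavage and cross-linking, 10 were measured and 1, Loxl1, a lysyl oxidase that cross-links chains, was at least 2-fold higher at 61.7 and 138 CPM (1.16, 0.47 to 1.94). Bmp1, the C-propeptidase, was at 273 and 208 CPM (-0.39, -0.76 to -0.01) and Adamts2, an N-propeptidase, at 244 and 286 CPM (0.23, -0.14 to 0.62). Leaving out nuclei above 5% mitochondrial UMIs was applied to these genes after seeing the data. In that setting 3 of 13 chain modification genes (Serpinh1, Ppib and P4ha1) and 1 of 10 cleavage genes (Loxl1) were at least 2-fold higher, against 11.2% of all genes. None was lower there, against 406 of 6656 genes.

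Among 11 genes for degradation and its inhibitors, 8 were measured in fibroblast-like nuclei and 7 were at least 2-fold higher, with a median of 1.11, against 11.2% of all genes and an all-gene median of 0.08. Without nuclei above 5% mitochondrial UMIs (17.9% and 45.6% of the class), a setting applied to these genes after seeing the data, 5 of 8 were at least 2-fold higher. Their median was 1.16, and 11.2% of all genes were higher in that setting. The 7 were the proteases Ctsk, Mmp2, Mmp14 and Mmp19 and the inhibitors Timp1, Timp2 and Timp3. Timp3 had 585 and 1236 CPM (1.08, 0.85 to 1.31) and Timp2 had 110 and 226 CPM (1.03, 0.51 to 1.60), whereas Fap, a membrane protease of fibroblasts, had 276 and 446 CPM (0.69, 0.35 to 1.04). Of 9 collagen receptors, 6 were measured and none was at least 2-fold higher. Ddr2, a receptor kinase for fibrillar collagen, stood at 390 and 492 CPM (0.34, 0.04 to 0.64) and Mrc2, an endocytic collagen receptor, at 299 and 321 CPM (0.10, -0.24 to 0.45).

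In adipocyte-like nuclei, where 14.7% of all genes were at least 2-fold higher and 4.2% lower, 2 of 15 measured genes for chain modification were higher, Crtap and Colgalt1, the collagen galactosyltransferase, which had 58.8 and 121 CPM (1.04, 0.88 to 1.20). Of 10 measured genes for cleavage and cross-linking, Pcolce2, an enhancer of the C-propeptidase, had 61 and 1039 UMIs, 8.01 and 124 CPM (3.96, 3.58 to 4.35), Loxl2 was also at least 2-fold higher, and Adamts2 was lower at 24.0 and 6.70 CPM (-1.84, -2.30 to -1.40). Pcolce2 was thus high in the same class and library as Col5a3, and whether single nuclei held both was not tested. It had 2.18 and 34.2 CPM in endothelial-like nuclei (3.98, 2.28 to 6.34) and 2.13 and 30.9 CPM in immune-like nuclei (3.86, 1.34 to 9.18). In fibroblast-like nuclei it had 58.5 and 95.6 CPM (0.71, -0.03 to 1.52). Of 9 receptors measured, 3 were at least 2-fold higher (Mrc2, Itga2 and Ddr1) and 1 lower (Adgrg1). Mrc2 had 70 and 391 UMIs, 9.19 and 46.8 CPM (2.35, 1.98 to 2.74), and Itga1, a collagen-binding integrin chain, had 132 and 188 CPM (0.52, 0.40 to 0.63).

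In the vessel classes the inhibitor Timp3 was higher in the library labelled Wtap-BKO, at 209 and 437 CPM (1.06, 0.84 to 1.29) in endothelial-like and 343 and 870 CPM (1.34, 1.10 to 1.59) in pericyte-like nuclei. All 3 measured genes for degradation and its inhibitors were at least 2-fold higher in endothelial-like nuclei, against 14.8% of all genes, and 2 of 4 in pericyte-like nuclei, against 9.01%. Without nuclei above 5% mitochondrial UMIs 1 of these genes was measured in endothelial-like nuclei, Timp3, which was higher, and 1 of 3, also Timp3, was higher in pericyte-like nuclei. Of all genes, 10.3% and 6.47% were higher in that setting, and 530 of 5568 and 348 of 4016 lower. Of chain modification genes, 1 of 12 was at least 2-fold higher in each vessel class (P4hb, a subunit of prolyl hydroxylase). In the setting with fewer nuclei, 1 of 5 was higher (Serpinh1) and 1 lower (P4ha1) in endothelial-like nuclei. In pericyte-like nuclei 0 of 6 were higher or lower. Itgb1, the shared beta chain of collagen-binding integrins, was at 115 and 261 CPM (1.18, 0.87 to 1.48) in endothelial-like nuclei and 181 and 228 CPM (0.33, -0.07 to 0.73) in pericyte-like nuclei. In immune-like nuclei, 1 of 12 chain modification genes, 2 of 7 cleavage genes, 2 of 8 degradation genes and 0 of 7 receptors were at least 2-fold higher, against 13% of all genes. Of the cleavage genes 1, Adamts2, was at least 2-fold lower (23.4 and 5.55 CPM, -2.08, -3.28 to -0.82), against 5.67% of all genes. Among immune-like nuclei at or below 5% mitochondrial UMIs, 4 of 8 chain modification genes were higher (Plod3, Colgalt1, Ppib and P4ha1). So were 0 of 2 cleavage, 2 of 4 degradation and 0 of 3 receptor genes, against 14.9% of all genes. None of these was lower there, against 696 of 8409 genes.

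Chains encoded side by side did not always differ alike. Col3a1 and Col5a2 lie 24624 bases apart on chromosome 1, and in adipocyte-like nuclei their ratios were 1.05 and 0.93, while in pericyte-like nuclei they were 1.03 and 0.06. Col4a3 and Col4a4 overlap by 114 bases and had ratios of 0.98 and 1.56 in fibroblast-like nuclei. The annotated overlaps of Col4a1 with Col4a2 and of Col4a3 with Col4a4 are short, but reads that fall in them cannot be assigned to 1 gene by position alone.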

How the data were processed

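Libraries of nuclei from iBAT, 1 per genotype, were analysed. The deposited files hold raw counts of UMIs per gene and nucleus. The authors made these counts with Cell Ranger 5.0.0 per the file headers, against mm10 per the submitters' processing notes, which also name Trimmomatic, FastQC and Seurat. Whether intronic reads were counted is not given in the sources used here. The study's minimum was 500 UMIs per nucleus, which every deposited barcode met.

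Nuclei were clustered in Seurat 5.3.0 (R 4.3.3) after integration of the libraries (2000 variable features without collagens, 20 principal components, resolution 0.5, 13 clusters). A cluster was named X-like from 114 markers in 15 lists where at least 3 markers had 10 UMIs and at least 2-fold the level of the other nuclei. Adipocyte-like clusters needed 50% of 12 markers at 1.5 times the level of the named clusters. These cut-offs, the collagen groups, the gene lists and the members were chosen with earlier results of these data known. Names were rebuilt here and may differ from those of the study. Scrublet (scanpy 1.11.5) called 3 and 0 doublets and had not worked, so doublets stayed in. As an alternative, the 721 and 616 nuclei with the highest scores were removed.

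UMIs were summed per library and class and divided by the sum of all UMIs of the class (CPM). With 1 library per genotype there was no test. CPM have exact Poisson intervals, ratios exact conditional intervals and shares exact Clopper-Pearson intervals, all at 95% and for counting error only. A level of 0 was compared at a floor of 3 UMIs in that library, and a share of 0 at a floor of 3 nuclei. Genes with at least 20 UMIs over both libraries in a class were measured, and a difference was counted from 2-fold. Full values were given for the 8 collagens with the most UMIs in a class and for Col1a1, Col3a1, Col4a1, Col4a2, Col5a3, Col6a3, Col15a1 and Col18a1. Other measured collagens were named for their place in a count, a group or the order of classes. Shares used nuclei thinned to 1000 UMIs. Alternatives changed the nuclei kept, the scaling, the classes and the minimum of UMIs per gene. Code was tested on simulated data. Python 3.11.15, scipy 1.17.1 and matplotlib 3.10.9 were used. Gene positions and overlaps come from the RefSeq annotation of GRCm38.p6, which matched all 44 collagens.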

Additional observations from a re-analysis of the deposited data

How the results depend on the processing

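The list medians kept their direction in every class under the alternatives run. Over them the median log2 ratio of the collagens ranged from 0.20 to 0.60 in fibroblast-like, 0.09 to 1.06 in adipocyte-like, 1.39 to 2.35 in endothelial-like, 0.13 to 0.60 in pericyte-like and 0.55 to 1.35 in immune-like nuclei, and Col5a3 in adipocyte-like nuclei from 4.57 to 4.92. The adipocyte median of 1.06 was that without nuclei above 5% mitochondrial UMIs. Leaving out Col1a1, Col3a1 and Col5a3 was not part of these alternatives and turned the adipocyte median to -0.02. With these genes left out the median was 0.36 in fibroblast-like, 1.75 in endothelial-like, 0.28 in pericyte-like and 0.86 in immune-like nuclei. Counts of collagens at least 2-fold higher or lower moved more. They were added as results after the data had been seen. The counts below stand without the number of collagens measured and, apart from the first setting, without the share over all genes. They show only how far the counts moved. Without nuclei above 5% mitochondrial UMIs, the counts higher were 1 in fibroblast-like, 7 in endothelial-like, 2 in pericyte-like and 7 in immune-like nuclei, against 11.2%, 10.3%, 6.47% and 14.9% of all genes. The counts lower were 2 in adipocyte-like, 0 in endothelial-like, 0 in pericyte-like and 2 in immune-like nuclei. Of all genes, 528 of 12129, 530 of 5568, 348 of 4016 and 696 of 8409 were lower in these classes. Without nuclei that hold a UMI of another lineage's markers, the counts higher were 3 in fibroblast-like and 3 in pericyte-like nuclei, and the counts lower were 0, 0 and 2 in fibroblast-like, pericyte-like and endothelial-like nuclei. That setting left 30 and 30 fibroblast-like and 92 and 50 pericyte-like nuclei, and in it the ratio turned to -0.11 for Col4a1 and -0.44 for Col6a3 in fibroblast-like and to -0.79 for Col3a1 and -0.10 for Col4a1 in pericyte-like nuclei. With classes from each nucleus's own markers, Col6a1 in pericyte-like nuclei turned to -0.11, 7 collagens were higher and 2 lower in immune-like nuclei, and 2 were lower in endothelial-like nuclei. Median-of-ratios scaling gave 3 higher in pericyte-like and 2 lower in endothelial-like nuclei, and an endothelial median of 1.51. With mitochondrial UMIs out of the denominator, 3 were lower in adipocyte-like nuclei. With the highest doublet scores removed, 0 were lower in fibroblast-like and pericyte-like nuclei and 7 were higher in immune-like nuclei. A minimum of 1000 UMIs per nucleus gave 2 lower in fibroblast-like and 0 lower in pericyte-like nuclei. A minimum of 50 UMIs per gene, which measures fewer genes, gave 0 lower in fibroblast-like, endothelial-like and pericyte-like nuclei and 6 higher and 2 lower in immune-like nuclei. With no minimum beyond 1 UMI per library, 5 were lower in fibroblast-like, 9 in adipocyte-like, 2 in endothelial-like and 9 in immune-like nuclei, and 20 were higher in endothelial-like and 11 in pericyte-like nuclei. Leaving out the smaller endothelial cluster, an alternative chosen after seeing the data, gave 0 lower, 14 higher and a median of 1.92. Where no construction of a setting shows it, the cause was not tested. Over 52 ratios of single collagens and 478 values under alternatives, 408 stayed within their counting interval, 32 moved up, 33 moved down and 5 turned their direction, as given above. No paired analysis was possible because each genotype is 1 library. Depth limits collagens under 20 UMIs in a class, for which no ratio is given.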
